A study of Homo sapiens with 20 samples.

Results

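The regions described here were 1424 sites of STAG2 ChIP-seq peaks that were no longer called upon STAG2 knockdown and that held no STAG1 peak in any library of M14 cells, an established human melanoma line. ChIP-seq was carried out against STAG1, STAG2, CTCF and SMC1A, and each antibody had 2 WT and 2 STAG2-KD peak lists, 16 lists in all, all from one stable, drug-selected M14 population carrying a doxycycline-inducible shRNA against STAG2. WT cells received no doxycycline and STAG2-KD cells received it (for 5 days, as the labels of replicate 1 state), so that both groups carry the construct and differ in the drug itself as well as in the knockdown, which cannot be told apart. The replicates are named as the labels number them, and the DNA of replicate 1 was size-selected with beads and that of replicate 2 on a gel. No source says whether the replicates came from separate cultures, so the spread between them may be technical.

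The sites were selected on STAG2 and STAG1 peaks. The 4 STAG2 lists were merged into 130122 union sites on chromosomes 1 to 22 and X, 70129 of which had a peak in both WT lists, and 3492 of them had no peak in either STAG2-KD list, 2.68% of the union sites. Of these 3492 lost sites, 1424 (40.8%) overlapped no STAG1 peak in any of the 4 STAG1 lists, 615 overlapped one in 1 list, 561 in 2 lists, 400 in 3 lists and 492 in all 4. The 1424 sites are called STAG1-free lost sites below. The STAG2 lists held 79048 and 118984 peaks in WT (replicates 1 and 2) and 58418 and 106135 in STAG2-KD. Depth was not given, so these counts do not measure the knockdown. A site is present or absent here at the thresholds of the deposited lists, which differ between the replicates, and a weak signal under them counts as absent. The nearest lost sites outside the selection carried 1 STAG1 peak at the edge of the list. The 3 weakest of these, in SGCD, MIR2052HG and DIXDC1 (chr5:156080076-156080585, chr8:75716245-75716668 and chr11:111875162-111875499), each had a STAG1 peak in WT replicate 2 with a −log10 p of 2.05 and a fold of 1.9.

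Cohesin is a ring-shaped complex that extrudes and holds chromatin loops. SMC1A belongs to the core of the ring itself, whereas STAG1 and STAG2 are alternative subunits of which a ring carries one. CTCF is a zinc finger protein that binds DNA by sequence and at which moving cohesin often stops, and cohesin with STAG2 is also known from enhancers and promoters that bind no CTCF. Comparison was made with 3 like sets of sites: 492 lost sites keeping STAG1 (a STAG1 peak in all 4 lists), 129 lost sites acquiring STAG1 (a peak in both STAG2-KD lists and in neither WT list), and 161 retained sites without STAG1 (STAG2 in all 4 lists, STAG1 in none). Sites of one library are not replicates, so groups were compared over libraries.

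One feature of the strongest sites is given before all other results. The STAG1-free lost sites with the highest STAG2 enrichment in WT lay over exons of genes for liver plasma proteins, genes whose products are made mainly by hepatocytes. The sequences of 4 of them are printed to show this, read from the plus strand of the GRCh37 reference, which is the build hg19 of the lists, with protein-coding bases in capitals and intron in lower case. ALB encodes albumin, the main plasma protein, FGA encodes the fibrinogen alpha chain of blood clots, and ORM1 encodes an acute-phase glycoprotein. Over ALB and ORM1 the site spanned an exon and a short stretch of intron at each end.
FGA, 201 bp around the summit, chr4:155506752-155506952: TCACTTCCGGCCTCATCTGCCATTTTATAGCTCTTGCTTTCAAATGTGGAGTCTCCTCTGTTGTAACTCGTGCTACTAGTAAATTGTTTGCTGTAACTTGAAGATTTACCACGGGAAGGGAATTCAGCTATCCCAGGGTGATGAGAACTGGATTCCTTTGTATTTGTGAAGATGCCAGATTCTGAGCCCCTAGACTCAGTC
ALB, whole site, chr4:74283201-74283436: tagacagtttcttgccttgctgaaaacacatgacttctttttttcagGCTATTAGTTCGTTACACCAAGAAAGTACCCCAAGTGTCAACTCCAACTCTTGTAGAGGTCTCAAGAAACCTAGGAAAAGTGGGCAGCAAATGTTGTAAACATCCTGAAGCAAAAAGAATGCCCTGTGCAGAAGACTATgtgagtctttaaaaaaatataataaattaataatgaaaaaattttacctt
ALB, whole site, chr4:74272310-74272542: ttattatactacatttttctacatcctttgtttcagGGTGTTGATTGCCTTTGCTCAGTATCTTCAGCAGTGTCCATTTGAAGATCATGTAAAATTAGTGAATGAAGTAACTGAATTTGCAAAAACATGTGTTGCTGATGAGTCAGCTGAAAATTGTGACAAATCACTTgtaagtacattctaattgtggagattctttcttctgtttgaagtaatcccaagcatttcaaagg
ORM1, whole site, chr9:117085917-117086145: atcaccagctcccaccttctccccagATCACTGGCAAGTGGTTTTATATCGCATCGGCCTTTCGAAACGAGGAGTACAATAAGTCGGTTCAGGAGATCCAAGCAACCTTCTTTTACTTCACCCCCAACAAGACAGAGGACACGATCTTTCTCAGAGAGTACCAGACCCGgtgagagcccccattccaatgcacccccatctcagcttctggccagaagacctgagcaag

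Among the 10 STAG1-free lost sites with the lowest sum of STAG2 ranks in the WT lists, 8 lay over exons of genes from a list of 24 liver plasma protein genes. This list was drawn up with earlier results on ALB and FGA known. The first site, in a coding exon of FGA, had a STAG2 fold (summit pileup over expected background) of 13.9 in WT replicate 1 and 10.6 in WT replicate 2. A coding exon of HP, the hemoglobin-binding haptoglobin, followed with 16.3 and 6.47 (chr16:72094039-72094758), and HP shares sequence with its neighbour HPR, so that reads may have been divided between them. The 2 ALB sites printed above had folds of 10.5 and 7.55 (chr4:74283201-74283436) and of 8.64 and 6.99 (chr4:74272310-74272542). TTR, a thyroid hormone carrier, held a site with its midpoint in an exon, outside the coding part, with 9.61 and 6.62 (chr18:29178540-29178813). SERPINA1, the gene of a protease inhibitor, had 8.95 and 6.47, ORM1 had 11.8 and 5.40, and FGB, the fibrinogen beta chain, had 8.32 and 6.02 (chr4:155491628-155491981). None of these 8 sites overlapped a CTCF or SMC1A peak in any of the 8 lists, as was the case for 22.1% of all STAG1-free lost sites.

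In all, 14 STAG1-free lost sites had their midpoint in 8 of the 24 genes. All 14 midpoints lay in exons, 11 of them in coding exons, although exons make up 23.1% of the bodies of these 24 genes. Their folds ranged from 5.14 to 16.3 in WT replicate 1, with a median of 8.79, and from 3.89 to 10.6 in WT replicate 2, with a median of 5.71. ALB alone held 6 of the 10 ALB sites present in both WT lists, SERPINA1 held 2, and APOB, the main protein of low-density lipoprotein, held 1 (chr2:21231393-21231588, folds 5.14 and 4.10). Around these 24 genes, counting 10 kb on each side, STAG1-free lost sites made up 24.1% of the sites present in both WT lists (14 of 58), against 2.03% over the genome (1424 of 70129). ALB and FGA, known when the list was drawn up, held 6 and 1 of the 14. The share of 24.1% was thus partly set by that choice. Seen by list, summits within the 24 genes fell in exons in 25 of 39 cases and 30 of 53 cases for STAG2 in WT (64.1% and 56.6%), and in 3 of 13 and 6 of 22 cases in STAG2-KD (23.1% and 27.3%). For STAG1 the share in exons was 42.1% and 40% in WT and 28.6% and 20.8% in STAG2-KD. For CTCF it was 33.3% and 28.1% in WT and 42.9% and 37.04% in STAG2-KD, and for SMC1A 25% and 14.6% in WT and 30% and 34.4% in STAG2-KD, so that it was higher in STAG2-KD for these antibodies and lower for STAG2 and STAG1. Over ALB the STAG2 lists of WT held 10 and 11 peaks, with 10 summits in exons in each, and those of STAG2-KD held 0 and 1. The STAG1 lists held 3 and 4 there in WT and 0 and 0 in STAG2-KD, and the CTCF and SMC1A lists held 0 in every library. Whether these exonic peaks mark STAG2 bound to chromatin or come from other DNA in the libraries was not tested, so the strongest of the STAG1-free lost sites may not be STAG2 binding sites. Without the sites over these genes, an alternative chosen after seeing the data, 1410 sites were left.

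**Figure D1:**
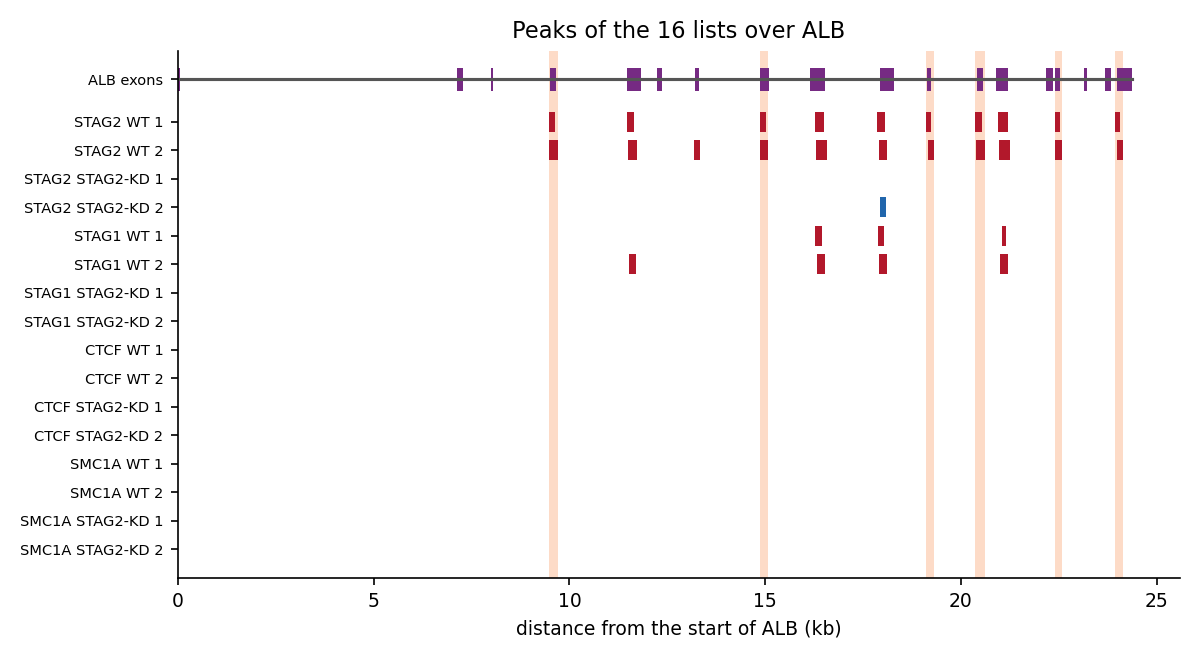
Peaks of the 16 lists over ALB, by distance from the start of the gene in kb, 1 row per antibody, condition and replicate, with WT peaks in red and STAG2-KD peaks in blue; purple boxes are exons and the pale bands mark the 6 STAG1-free lost sites. The peaks lie over exons, 10 and 11 of them in the WT STAG2 lists, and the CTCF and SMC1A rows are empty.

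Outside the liver genes, 2 sites completed the first 10. One was in an intron of the noncoding RNA gene LINC02428 (chr4:104275157-104275598), with folds of 7.05 and 6.95 and neither CTCF nor SMC1A in any library. The other was in an intron of DMD, the gene of the muscle protein dystrophin (chrX:33083406-33084020), with folds of 7.68 and 6.26 and an SMC1A peak in WT replicate 2 alone, at a fold of 2.51. At the other end, the 3 weakest sites lay between genes near ANKRD55 (chr5:55575845-55576035, folds 2.96 and 1.83), in UBE2H (chr7:129493623-129493978, 2.61 and 1.88) and over DUX4L50, a copy of a repeated gene family (chr9:68413847-68414511, 2.38 and 1.49), where reads of near-identical copies cannot be told apart.

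The STAG1-free lost sites were weak sites. STAG2 enrichment is part of what selected them and is therefore described without a test. Their median STAG2 fold in WT was 4.31 in replicate 1 (quartiles 3.87 and 4.87) and 3.67 in replicate 2 (3.11 and 4.28). All sites present in both WT lists had medians of 9.26 and 8.59 in replicates 1 and 2. Expressed as the percentile within its list, the median STAG1-free lost site stood at 13.9 in replicate 1 and 35.5 in replicate 2, the lost sites acquiring STAG1 at 15.4 and 36.4, the lost sites keeping STAG1 at 24.8 and 41.6, and the retained sites without STAG1 at 19.9 and 42.4. The fold and p columns allow the summit pileup to be recovered, in fragments scaled as the peak caller scaled them. The median STAG1-free lost site had 12.9 scaled fragments in WT replicate 1 (1372 sites resolved) and 20.4 in WT replicate 2 (1421 sites resolved). At the lowest background of the list, the smallest pileup called was 9.58 in the STAG2-KD list of replicate 1 and 9.80 in that of replicate 2. The median site thus stood close to the limit of detection in replicate 1, and absence from a STAG2-KD list does not measure how much STAG2 was left.

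The share of STAG1-free lost sites was lower among stronger sites. In replicate 1 they made up 8.96% of the sites present in both WT lists between the percentiles 0 and 10 of the WT STAG2 list, 7.81% between 10 and 20, and 2.07% between the percentiles 30 and 40. Above the percentile 50 of that list 12 sites were left, of which 9 lay in the liver plasma protein genes, and above 70 there were 0. In replicate 2 the share was 16.9% between the percentiles 0 and 10 and 0.186% between the percentiles 60 and 70. Sites were narrow, with a median width of 402 bp against 862 bp for all sites in both WT lists, 414 bp for lost sites keeping STAG1, 371 bp for lost sites acquiring STAG1 and 725 bp for retained sites without STAG1.

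**Figure D2:**
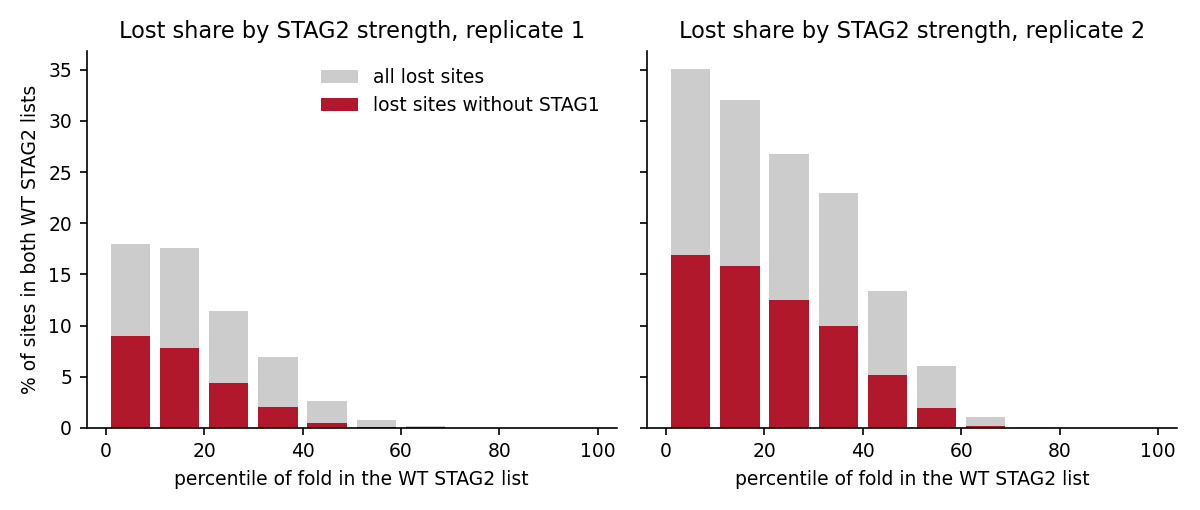
Percentage of the sites present in both WT STAG2 lists that were lost in both replicates (grey, all lost sites; red, lost sites without STAG1), by steps of 10 in the percentile of fold in the WT STAG2 list of replicate 1 (left) and replicate 2 (right). The red share goes from 8.96% and 16.9% in the lowest step to 0 above the percentile 80 in both replicates.

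Most STAG1-free lost sites had no CTCF. In 983 of the 1424 sites (69.0%) no CTCF list had a peak, and in 210 (14.7%) all 4 CTCF lists had one. A CTCF peak was present at 19.9% of the sites in WT replicate 1 (95% Wilson interval 18.0% to 22.1%, which covers counting error only), at 30.0% in WT replicate 2, at 15.8% in STAG2-KD replicate 1 and at 22.3% in STAG2-KD replicate 2. The STAG2-KD share was lower than the WT share of the same replicate in both, by 4.14 and 7.65 percentage points. The mean was 24.96% ± 7.10 in WT and 19.1% ± 4.62 in STAG2-KD (SD, n = 2 each), a difference of -5.90 points with p = 0.667 by a two-sided exact permutation test, which cannot go below 0.333 with 2 libraries against 2. The replicates thus differed from each other by more than the conditions did.

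CTCF separated the STAG1-free lost sites from the lost sites that had STAG1. At lost sites keeping STAG1 the CTCF share was 84.8% and 93.9% in WT and 81.1% and 90.0% in STAG2-KD. Over the 4 CTCF libraries the STAG1-free lost sites differed by -67.7 to -63.9 percentage points, with a mean of -65.4 ± 1.62 (SD, n = 4, exact sign-flip permutation p = 0.125, the smallest that 4 libraries allow). Against lost sites acquiring STAG1 the mean difference was -33.0 ± 5.34 points, lower in 4 of 4 libraries (exact p = 0.125). Against retained sites without STAG1 it was -8.73 ± 6.16 points, again lower in 4 of 4 (exact p = 0.125). Among all lost sites the CTCF share in WT replicate 1 was higher the more STAG1 lists had a peak, from 19.9% with 0 lists through 32.7%, 44.7% and 58.3% to 84.8% with 4 lists. These differences in CTCF are measured on sites that were grouped by STAG1, and STAG2 strength differed too for the lost sites keeping STAG1 and the retained sites, but was close for the lost sites acquiring STAG1 (median folds 4.36 and 3.69).

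Where CTCF was present in all 4 lists, it was lower in enrichment in STAG2-KD. At the 210 such sites the median CTCF fold was 11.6 and 10.2 in WT (replicates 1 and 2) and 8.30 and 7.60 in STAG2-KD. The fold was lower in STAG2-KD at 82.9% of the 210 sites in replicate 1 and at 82.4% in replicate 2, with a median ratio of 0.775 and 0.748. Over all 52425 STAG2 sites in both WT lists that had CTCF in all 4 lists, the share that was lower was 45.5% and 53.9% and the median ratio 1.03 and 0.975. The fold of one list is not scaled to that of another, so the ratios of the 210 sites are to be read against these. Among sites in both WT STAG2 lists, however, CTCF peaks were stronger, with a median fold of 31.65 and 24.32 in WT. Each condition and replicate had 1 input, so its STAG2 and CTCF peaks were called over the same input. The part of strength and of the shared input in these ratios was not tested. No such ratio was taken for the like sets. Over all their sites with a CTCF peak in a list, median folds at lost sites keeping STAG1 were 12.66 and 11.37 in WT. In STAG2-KD they were 12.73 and 9.24. At lost sites acquiring STAG1 they were 8.89 and 6.55 in WT and 9.43 and 6.85 in STAG2-KD. Over all lost sites they were 10.55 and 7.83 in WT and 9.70 and 7.01 in STAG2-KD. CTCF was lost in both replicates at 28 of the 1424 sites (1.97%, against 0.539% of the union STAG2 sites, 1.83% of the lost sites keeping STAG1 and 2.18% of all lost sites). It was gained in both at 1 (0.0702%, against 0.327% of the union STAG2 sites and 0.137% of the sites in both WT STAG2 lists). The 28 sites were 9.93% of the 282 that had CTCF in both WT lists, against 2.16% at lost sites keeping STAG1 (9 of 417), 5.71% at retained sites without STAG1 (2 of 35) and 0 of 59 at lost sites acquiring STAG1. Of these 282, 81 had CTCF peaks under the percentile 25 of the WT list of replicate 1, and 25 of the 28 losses were among them (30.9% of 81). Over all sites in both WT STAG2 lists, 5.37% of those under that percentile lost CTCF. The share was 12.3% at lost sites keeping STAG1 (8 of 65) and 11.1% at retained sites without STAG1 (2 of 18). At lost sites acquiring STAG1 it was 0 of 14. Without regard to percentile, 5.51% of all lost sites with CTCF in both WT lists lost it (76 of 1380).

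Sequences around the STAG2 summits of sites that kept and lost CTCF are printed as examples, with the CTCF core motif in capitals. The core was a match on either strand to the short central pattern of the CTCF site. Both printed sites that kept CTCF in all 4 lists were picked because they carried it, one in an intron on chromosome 7 with CTCF folds of 53.1 and 42.2 in WT and 54.5 and 41.5 in STAG2-KD, and one on chromosome 5. The site on chromosome 19 with CTCF in both WT lists (folds 8.97 and 8.12) and in neither STAG2-KD list, and that in an intron of SYK, a tyrosine kinase gene (CTCF folds 5.87 and 9.42 in WT), held no match. The sites that kept CTCF were chosen after their values were seen, and those in THSD4 (CTCF folds 65.3 and 40.0 in WT, 51.8 and 32.2 in STAG2-KD) and LINC02684 (41.1 and 36.4, 33.7 and 26.8), which had among the highest CTCF folds, held no match.
CTCF kept, chromosome 7, chr7:24827809-24828009: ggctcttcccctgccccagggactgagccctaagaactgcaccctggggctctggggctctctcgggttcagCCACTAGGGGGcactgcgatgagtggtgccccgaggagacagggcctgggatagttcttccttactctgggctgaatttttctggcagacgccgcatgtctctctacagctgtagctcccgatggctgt
CTCF kept, chromosome 5, chr5:10857220-10857420: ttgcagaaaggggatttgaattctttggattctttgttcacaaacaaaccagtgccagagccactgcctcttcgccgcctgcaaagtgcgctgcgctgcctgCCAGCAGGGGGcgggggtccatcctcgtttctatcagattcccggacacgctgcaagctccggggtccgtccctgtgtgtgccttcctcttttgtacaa
CTCF lost, chromosome 19, chr19:8082801-8083001: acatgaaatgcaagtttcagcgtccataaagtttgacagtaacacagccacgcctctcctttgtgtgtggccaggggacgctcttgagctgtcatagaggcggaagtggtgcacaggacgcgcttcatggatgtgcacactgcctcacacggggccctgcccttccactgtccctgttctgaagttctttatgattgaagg
CTCF lost, SYK, chr9:93597177-93597377: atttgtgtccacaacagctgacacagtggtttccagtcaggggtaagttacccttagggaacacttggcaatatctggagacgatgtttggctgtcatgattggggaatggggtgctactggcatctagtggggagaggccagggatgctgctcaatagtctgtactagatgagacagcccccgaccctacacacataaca

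SMC1A peaks were also fewer at the STAG1-free lost sites in STAG2-KD. An SMC1A peak was present at 21.0% of them in WT replicate 1 and 58.1% in WT replicate 2, and at 9.48% and 31.6% in STAG2-KD. Within each replicate the STAG2-KD share was lower, by 11.5 and 26.5 percentage points. The mean was 39.6% ± 26.3 in WT and 20.5% ± 15.6 in STAG2-KD (SD, n = 2 each), a difference of -19.0 points. A two-sided exact permutation test gave p = 0.667, since the replicates, which were called at different thresholds, lay further apart than the conditions. The lost sites keeping STAG1 went from 48.4% and 70.3% to 47.0% and 65.4%, the lost sites acquiring STAG1 from 20.9% and 45.7% to 24.8% and 45.0%, and the retained sites without STAG1 from 49.7% and 81.4% to 55.9% and 85.7%. The difference per replicate was thus -1.42 and -4.88 points, 3.88 and -0.775 points, and 6.21 and 4.35 points in these 3 sets. Among lost sites the difference was smaller where more STAG1 lists had a peak, with mean differences of -19.0, -15.5, -11.8, -5.63 and -3.15 points for 0, 1, 2, 3 and 4 lists.

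**Figure D3:**
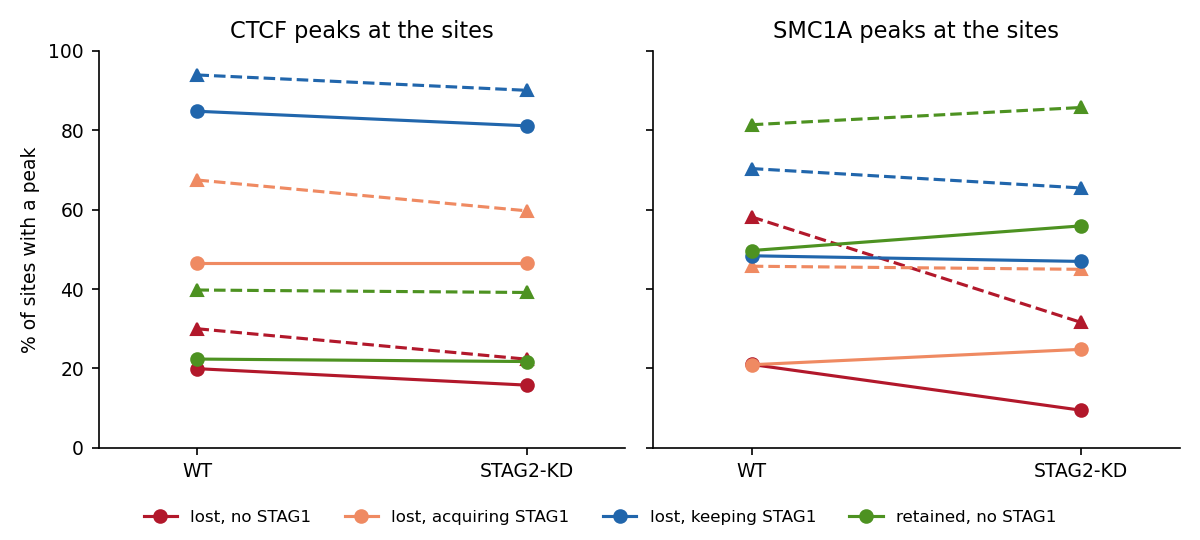
Percentage of sites with a CTCF peak (left) and an SMC1A peak (right) in WT and STAG2-KD, with circles and solid lines for replicate 1 and triangles and dashed lines for replicate 2, 1 point per library, coloured by set of sites. SMC1A goes from 21.0% to 9.48% and from 58.1% to 31.6% at the lost sites without STAG1 (red) and is higher in STAG2-KD at the retained sites without STAG1 (green).

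SMC1A peaks found in both replicates of WT but in no STAG2-KD list numbered 125 at the STAG1-free lost sites (8.78%, against 7.02% of all lost sites and 0.906% of the union STAG2 sites). They were 44.3% of the 282 sites that had SMC1A in both WT lists. The same share was 24.2% over all lost sites (245 of 1012), with 47 of 174 at lost sites with a STAG1 peak in 1 list. It was 9.87% at lost sites keeping STAG1 (23 of 233), 3.85% at lost sites acquiring STAG1 (1 of 26) and 1.299% at retained sites without STAG1 (1 of 77). Over all sites in both WT STAG2 lists it was 1.05% (575 of 54757). SMC1A peaks of the STAG1-free lost sites were weak, with a median percentile of 20.7 in WT replicate 1, against 34.3 at retained sites without STAG1 and 65.7 over all sites in both WT lists. Under the percentile 25 of the SMC1A list of WT replicate 1, 50.0% of the STAG1-free lost sites lost SMC1A in both replicates (76 of 152), against 16.3% of the lost sites keeping STAG1 (7 of 43), 4.00% of the retained sites without STAG1 (1 of 25) and 5.39% over all sites (322 of 5973). Between the percentiles 25 and 50 the shares were 40.6%, 12.04%, 0 of 38 and 2.14%. Gains were fewer than losses, with 10 sites (0.702%) having SMC1A in both STAG2-KD lists and in neither WT list. The share was 1.62% of the union STAG2 sites, 0.478% of the sites in both WT STAG2 lists and 5.59% of the retained sites without STAG1. Of the sites with SMC1A in both STAG2-KD lists, 8.06% were gained at STAG1-free lost sites (10 of 124). This was 10.2% at retained sites without STAG1 (9 of 88) and 0.598% over all sites in both WT lists. The 3 gained sites with the highest fold were in introns of MAML3, a Notch coactivator (chr4:140843676-140844052, SMC1A folds 3.77 and 3.85 in STAG2-KD), NAV3 (chr12:77770944-77771237, 4.89 and 3.68) and MMADHC-DT (chr2:150598198-150598469, 4.89 and 3.46).

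The SMC1A share was lower in STAG2-KD both with and without CTCF at the site. At the 282 STAG1-free lost sites with CTCF in both WT lists the SMC1A share differed by -16.7 and -21.3 points, and at the 983 without CTCF in any list by -9.87 and -29.7 points. It differed by -14.8 points on average at promoters (169 sites), by -20.4 in introns (854 sites), by -19.3 between genes (345 sites) and by -13.2 in other exons (38 sites). In coding exons (18 sites) it differed by 5.56 and -5.56 points in replicates 1 and 2. The 712 stronger STAG1-free lost sites differed by -21.4 points and the 712 weaker ones by -16.6 points. At the 58 sites with SMC1A in all 4 lists, the fold was lower in STAG2-KD at 63.8% and 72.4% of sites, with a median ratio of 0.879 and 0.883, against 1.15 and 1.17 over the 50993 such sites in both WT STAG2 lists. SMC1A and STAG2 peaks of a condition and replicate were called over the same input. The part of this shared input in the lower SMC1A shares and folds was not tested. Over all lists, 668 sites (46.9%) had SMC1A but no CTCF in any list, 242 (17.0%) had both, 199 (13.97%) had CTCF but no SMC1A, and 315 (22.1%) had neither. Sites with neither were 3.73% of the retained sites without STAG1 and 0.610% of the lost sites keeping STAG1.

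Compared over the 4 SMC1A libraries, the STAG1-free lost sites had SMC1A less often than the lost sites keeping STAG1, by a mean of -27.7 ± 11.2 points (SD, n = 4, lower in 4 of 4, exact sign-flip permutation p = 0.125). They were also lower than the retained sites without STAG1, by -38.1 ± 14.6 points (lower in 4 of 4, exact p = 0.125). Against the lost sites acquiring STAG1 the difference was -4.05 ± 12.9 points, lower in 2 of 4 libraries (exact p = 0.500), so no direction can be given. This value moved with the processing, to -16.1 and -14.4 points with 1 replicate alone and -8.87 points at a −log10 q-value of at least 3. Within the strongest 50% of each WT STAG2 list, where 12 STAG1-free lost sites were left, it was -70.8 points. Of the 129 lost sites acquiring STAG1, however, 1 stood in that part of the WT replicate 1 list. The value thus rests on 1 site of that set and is not a measure of it. Of the 3 CTCF-losing STAG1-free lost sites with the highest fold, the one not yet named lay between genes (chr8:47162046-47162417, CTCF folds 5.80 and 5.85 in WT).

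Most STAG1-free lost sites lay in introns. By midpoint, 59.97% lay in introns (854 of 1424), 24.2% between genes, 11.9% at promoters (within 1 kb of an annotated transcript start), 1.26% in coding exons and 2.67% in other exons. Exonic sites within 1 kb of an annotated transcript start, such as that over ORM1, are counted as promoters here. Over all sites in both WT STAG2 lists 45.0% lay in introns, 22.3% at promoters, 1.11% in coding exons and 3.33% in other exons. The STAG1-free lost sites as a whole were thus close to all sites in their exon shares. The lost sites keeping STAG1 had 49.8% in introns and 9.55% at promoters, and the retained sites without STAG1 had 18.6% and 63.4%. The median distance to a transcript start was 12.5 kb for STAG1-free lost sites, 6.99 kb over all sites in both WT lists and 0.189 kb for retained sites without STAG1. The median distance to the nearest site retained in all 4 STAG2 lists was 18.99 kb, against 14.2 kb for lost sites keeping STAG1, 22.9 kb for lost sites acquiring STAG1 and 19.7 kb for retained sites without STAG1. The nearest STAG1 peak of any list, which the selection kept off the sites, lay at a median of 8.15 kb, and 90 STAG1-free lost sites (6.32%) had another STAG1-free lost site within 10 kb. They made up 1.08% of the sites in both WT lists on chromosome 17, the lowest, and 2.61% on chromosome 7, the highest.

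**Figure D4:**
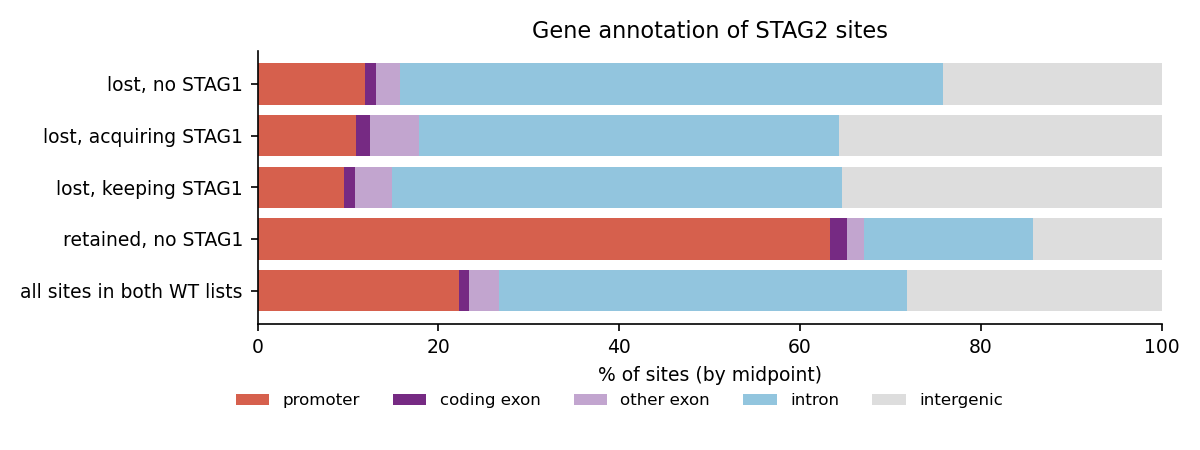
Percentage of sites by the annotation of their midpoint (promoter, coding exon, other exon, intron, intergenic) in the 4 sets and over all sites in both WT STAG2 lists. Introns hold 59.97% of the lost sites without STAG1, and promoters hold 63.4% of the retained sites without STAG1.

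In sequence, STAG1-free lost sites held the CTCF core less often than all sites in both WT lists, and some short motifs more often, though the like sets came close to them in part. A CTCF core lay within 100 bp of the STAG2 summit of WT replicate 1 at 4.42% of them (63 of 1424). The share was 19.5% over all sites in both WT lists and 0.492% in the sequence 5 kb away. It was 17.7% at lost sites keeping STAG1, 12.4% at lost sites acquiring STAG1, 8.36% over all lost sites and 0.621% at retained sites without STAG1. The 282 STAG1-free lost sites with CTCF in both WT lists had the core at 17.7% and the 983 without CTCF at 0.610%. All motifs were searched on both strands. The TEAD motif GGAATG was present at 18.96% (95% Wilson interval 17.0% to 21.1%), against 12.1% of all sites in both WT lists and 11.6% 5 kb away. TEAD factors are the DNA-binding partners of YAP. The RUNX motif TGTGGT was present at 19.3%, 15.1% and 13.2% in the same order, the SOX motif ACAAAG at 19.7%, 15.6% and 15.7%, and CATGTG, an E-box that MITF, the master regulator of melanocytes, can bind, at 16.2%, 11.8% and 13.4%. Lost sites acquiring STAG1 had CATGTG at 17.1%, TEAD at 16.3%, RUNX at 16.3% and SOX at 14.7%. Retained sites without STAG1 had SOX at 18.6%, RUNX at 14.3%, TEAD at 10.6% and CATGTG at 9.94%. Lost sites keeping STAG1 had SOX at 16.3%, CATGTG at 13.6%, TEAD at 13.2% and RUNX at 13.2%. Over all lost sites TEAD was present at 17.0% and RUNX at 18.1%. The shares of the AP-1 motif TGANTCA (8.43%, 8.76% and 7.31%), the E-box CACGTG (2.39%, 3.02% and 1.97%) and CCAAT (23.8%, 22.8% and 24.2%) lay between those of the other 2. The GC box GGGCGG was present at 5.20%, against 13.2% of all sites in both WT lists and 38.5% of retained sites without STAG1, and the ETS motif CCGGAAG at 0.702%, against 2.26% and 12.4%. Base composition moved with these shares, with a median of 43.3% G and C around the summits of STAG1-free lost sites, 47.8% over all sites in both WT lists, 58.7% at retained sites without STAG1 and 40.3% in the sequence 5 kb away, and its part in the motif shares was not tested. A match is a description of letters and not a site of binding.

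**Figure D5:**
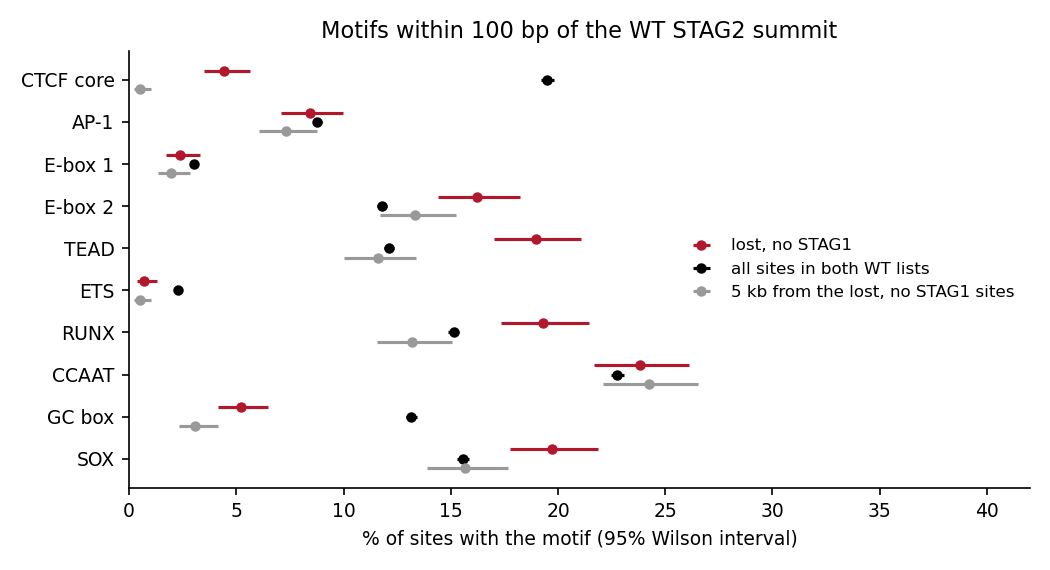
Percentage of sites with each motif within 100 bp of the STAG2 summit of WT replicate 1, with 95% Wilson intervals, for the lost sites without STAG1 (red), all sites in both WT STAG2 lists (black) and the sequence 5 kb from the lost sites without STAG1 (grey); E-box 1 is CACGTG and E-box 2 is CATGTG. For TEAD, RUNX, SOX and E-box 2 the red points lie to the right of both others, and the CTCF core is at 4.42% for the red points against 19.5% for the black.

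Sites at melanocyte genes and sites that lost SMC1A are printed as examples, with the TEAD, RUNX, SOX and CATGTG motifs in capitals on either strand, overlapping matches running together. The first 2 lie in introns of MITF and of PAX3, an upstream transcription factor of the neural crest. The other 2 are among the SMC1A-losing sites with the highest SMC1A fold in WT and were chosen after their values were seen.
MITF, chr3:69953702-69953902: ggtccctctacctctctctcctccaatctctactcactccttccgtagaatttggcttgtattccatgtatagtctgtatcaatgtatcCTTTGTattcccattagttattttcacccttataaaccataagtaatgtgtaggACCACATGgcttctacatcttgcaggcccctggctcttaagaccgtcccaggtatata
PAX3, chr2:223083671-223083871: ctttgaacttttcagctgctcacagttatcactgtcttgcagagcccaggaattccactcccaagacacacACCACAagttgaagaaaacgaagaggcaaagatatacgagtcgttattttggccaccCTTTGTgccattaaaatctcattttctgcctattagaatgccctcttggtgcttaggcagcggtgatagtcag
SMC1A lost, chromosome 5, chr5:163754289-163754489: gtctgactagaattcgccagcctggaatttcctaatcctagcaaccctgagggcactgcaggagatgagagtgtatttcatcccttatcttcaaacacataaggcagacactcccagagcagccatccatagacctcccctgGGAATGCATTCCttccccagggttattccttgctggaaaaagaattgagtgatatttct
SMC1A lost, chromosome 10, chr10:100128836-100129036: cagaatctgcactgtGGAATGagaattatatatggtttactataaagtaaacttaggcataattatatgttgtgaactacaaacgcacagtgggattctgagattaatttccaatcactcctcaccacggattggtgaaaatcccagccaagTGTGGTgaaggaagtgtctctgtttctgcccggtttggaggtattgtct

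At these 2 SMC1A-losing sites, the SMC1A fold in WT was 5.79 and 5.72 on chromosome 5 (chr5:163754145-163754640) and 5.22 and 6.02 on chromosome 10 (chr10:100128682-100129194), and no STAG2-KD list held a peak. Their STAG2 folds in WT were 3.75 and 4.10, and 5.18 and 4.52. Neither had a CTCF peak in any list.

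Of the 18 melanocyte lineage genes, 4 had a STAG1-free lost site in their body or within 10 kb, 5 sites in all. These were 4.76% of the 105 sites in both WT lists there, too few sites to read against the 2.03% over the genome. The intron of MITF held 1 (chr3:69953624-69954034), with STAG2 folds of 3.45 and 2.82 in WT and SMC1A in WT replicate 2 alone. PAX3 held 1 in an intron (chr2:223083613-223084072, folds 4.73 and 2.67), also with SMC1A in WT replicate 2 alone. TYR, the gene of the first enzyme of melanin synthesis, held 2, at its promoter (3.91 and 3.02) and in an intron (3.54 and 3.54), each with SMC1A in WT replicate 2 alone. The promoter site of SLC24A5, a melanosomal ion exchanger (chr15:48413735-48414593, 3.92 and 4.58), had SMC1A in both WT lists, with folds of 4.28 and 3.41, and in neither STAG2-KD list. None of the 5 had CTCF in any list, and all 5 had an SMC1A peak in WT replicate 2 and none in STAG2-KD, where 58.1% and 31.6% of all STAG1-free lost sites had one in replicate 2.

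In the other lists the share of the sites in both WT lists lay between 0 and 3.53%, again on few sites, against 2.03% over the genome. Of 29 interferon signaling genes, 2 had one: STAT2, a transcription factor of the interferon response, had 2 sites, in an intron (chr12:56752626-56753029, folds 3.92 and 2.62) and at its promoter (chr12:56753819-56754633, 6.38 and 3.62), and the sensor gene IFIH1 had 1 within 10 kb (chr2:163116896-163117255, 3.88 and 3.35). The STAT2 promoter site had weak CTCF in both replicates of WT (folds 4.19 and 2.51) and none in STAG2-KD, while SMC1A was still called in STAG2-KD replicate 2 (fold 3.86). The STAT2 intron site had CTCF in replicate 2 of WT and of STAG2-KD (folds 2.63 and 2.54). These 3 sites were 3.53% of the 85 sites in both WT lists. Of 16 cohesin and regulator genes (1 of 57 sites, 1.75%), STAG1 itself had 1 in an intron (chr3:136453376-136453694, folds 3.18 and 3.08) with CTCF in all 4 lists, at folds of 15.6 and 13.1 in WT and 8.27 and 7.51 in STAG2-KD. Of 19 melanoma driver and suppressor genes (2 of 84 sites, 2.38%), NF1, a negative regulator of RAS (chr17:29613566-29613925, 4.52 and 3.76), and ARID1A, a chromatin remodeler subunit (chr1:27051486-27051893, 3.09 and 3.54), had 1 each. Of 16 dedifferentiated melanoma state genes (1 of 70 sites, 1.43%), LOXL2, a collagen crosslinking enzyme, had 1 (chr8:23177570-23177825, 5.46 and 4.53) with CTCF in all 4 lists. The 17 MAPK feedback genes held 0 of 64 sites, too few sites to read against 2.03%.

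Some genes held several STAG1-free lost sites. In 23 protein-coding genes with a symbol 3 or more lay in the gene body, 79 sites together, and 20 of the 23 genes were longer than 200 kb. After ALB with 6 sites came PDE4D, a cyclic AMP phosphodiesterase gene of 1553 kb, with 6 of its 53 sites in both WT lists, IL1RAPL1, a synaptic receptor gene, with 5 of 24, and ROBO1, an axon guidance receptor, and NTM, a neuronal adhesion protein, with 4 each, of 33 and 44. The other 18 genes held 3 each. They comprised DMD (3 of 38), IGF1R, the receptor of insulin-like growth factor (3 of 28), COL5A2, a fibrillar collagen (3 of 9), CAP2, an actin regulator (3 of 6), and AUTS2, ANO6, ATP8B4, CAMKMT, CARMIL1, CHSY3, FBXL7, FGD4, FRMD4B, PCDH7, PPP2R2B, PRKD1, RBMS3 and ST6GALNAC3. Relative to the sites in both WT lists the share ran from 7.89% in DMD to 60% in ALB, with 50% in CAP2. The genes were picked for holding 3 or more such sites, which raises these shares. They cannot be read against the 2.03% over the genome. Of the 79 sites, 9 lay in exons, 6 of them in ALB, and 23 had neither CTCF nor SMC1A in any list, 6 of them again in ALB. No ALB site had a CTCF or SMC1A peak, whereas all 6 PDE4D sites had one in at least 1 list. Over all 1424 STAG1-free lost sites, 315 (22.1%) had neither, so a peak at all 6 PDE4D sites does not set that gene apart.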

How the data were processed

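ChIP-seq peaks of STAG1, STAG2, CTCF and SMC1A in WT and STAG2-KD M14 cells (2 lists each) were analysed. Per the study's methods and the submitters' processing notes, reads were aligned to hg19, and MACS2 called the peaks of each library over its input. The authors deposited a fold enrichment (ratio of summit pileup to expected background) and −log10 p-values and −log10 q-values for each peak. Lists of replicate 1 ended at a −log10 q-value of 2 and those of replicate 2 at a −log10 p-value of 2, so depth and thresholds differ between replicates. Depth itself was not given, and the lists held 58418 to 150282 peaks on chromosomes 1 to 22 and X, the only ones kept (0.145% to 4.76% of peaks were left out).

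STAG2 peaks were merged, and a peak overlapped a site by at least 1 bp. Scaled pileups were recovered from the fold and p columns (whole multiples within 0.03). Annotation was GENCODE 44 on GRCh37, and 4 gene symbols were matched to newer ones. Python 3.11.15, numpy 2.4.6 and scipy 1.17.1 were used, and functions were tested on simulated data. Conditions were compared by an exact permutation test over libraries, sets of sites by an exact sign-flip test, and no test was run over sites. Named were the 10 strongest and 3 weakest sites by rank sum, genes with 3 or more sites, listed genes within 10 kb, and up to 3 sites of each changed pattern. Members and gene lists were chosen with earlier results of these data known. Alternatives were a −log10 q-value of at least 3, 50% overlap, no STAG1 within 1 kb, the strongest 50% of the WT STAG2 lists, each replicate alone, other promoter and motif windows, and the replicate block. Some named sites are not reported here.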

Additional observations from a re-analysis of the deposited data

Results flagged for a closer look

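One result was marked because 2 sets of sites moved in opposite directions in every replicate. The share of sites with an SMC1A peak was lower in STAG2-KD at STAG1-free lost sites, by 11.5 and 26.5 percentage points, and higher at retained sites without STAG1, by 6.21 and 4.35 points. The mean differences were -19.0 and 5.28 points, and they differed by -24.3 ± 9.31 points (SD, n = 2 replicates, -17.7 and -30.9). An exact sign-flip permutation test gave p = 0.500, which is the smallest that 2 replicates allow, so the difference could not be shown at a threshold of 0.05. The sets also differed in promoter share (11.9% against 63.4%) and in the percentile of their SMC1A peaks in WT replicate 1 (median 20.7 against 34.3), and the part of these in the result was not tested.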

How the results depend on the processing

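No difference changed sign under any alternative run, though one became 0. The tests cannot reach 0.05 with these numbers of libraries, so their p-values say nothing on stability. The number of STAG1-free lost sites depended on the thresholds, with 2257 at a −log10 q-value of at least 3 in every list, 12 within the strongest 50% of each WT STAG2 list, and 11119 to 17068 with 1 replicate alone. Within the strongest 50% the CTCF difference between STAG2-KD and WT was 0, the share of sites in exons was 58.3% (3.93% over all STAG1-free lost sites), the promoter share 16.7% and the share with a CTCF core 0. The promoter share was 9.69% with no STAG1 peak within 1 kb, 17.2% with promoters of 2 kb, and 15.6% to 26.6% with 1 replicate alone. The CTCF core share was 3.09% within 50 bp and 2.27% to 3.09% with 1 replicate alone. With 1 replicate alone the difference between STAG2-KD and WT was -7.27 to -2.59 points for CTCF and -15.6 to -4.85 points for SMC1A. With the replicate block the differences were -5.90 and -19.0 points (exact permutation p = 0.500 for each, the smallest possible with 2 pairs). Same-numbered libraries share a protocol of extraction and size selection, and no source says that they were prepared together. Without the sites over the liver plasma protein genes, chosen after seeing the data, the differences were -5.96 and -19.2 points and the exon share 3.19%. Peak lists hold no signal below their thresholds, which limits every statement on absence.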
